A study of Mus musculus with 6 samples.

Results

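The annexins are a family of calcium-dependent, phospholipid-binding proteins, and their transcripts were followed here in stria vascularis of mice with and without Slc26a4, the gene for the anion exchanger pendrin. Members were chosen by name: every row of the array (a probe set, that is, a group of oligonucleotides designed against 1 transcript) annotated with the single symbol Anxa1 to Anxa9 or Anxa11. This gave 20 probe sets for 9 of the 10 genes, out of 45037 probe sets tested and 18193 genes with a probe set of their own. The only probe set for Anxa11, whose protein binds the calcium sensor Pdcd6, also carried 2 other gene symbols, so Anxa11 could not be measured separately and is not reported.

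Stria vascularis was microdissected from adult 129S6 mice that were either Slc26a4+/+ (3 arrays) or Slc26a4-/- (3 arrays). The mutants lack pendrin throughout the body, and no other allele or treatment was given for either genotype. The RNA on each array came from a pool of 2 animals and went through 2 rounds of amplification, so the p-values below measure the spread between such pools. Values are array signals (hybridization intensities in arbitrary units, with a like mean on each array as deposited), which can be compared between arrays for 1 probe set but not between probe sets.

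Stria vascularis lines the lateral wall of the cochlear duct and secretes potassium into endolymph. It is built of marginal, intermediate and basal cells around a dense capillary bed. Annexins bind the inner face of membranes when calcium rises, through conserved repeats that coordinate calcium between protein and phospholipid headgroup. The family is known for roles in membrane traffic, in resealing of torn plasma membrane, in recognition of phosphatidylserine and, for Anxa1, in ending inflammation.

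The 6 arrays had mean signals of 666 to 725, and 35.7% to 43.3% of probe sets on an array lay above its background, set by 44 probe sets for olfactory receptors at their 95th percentile (187 to 319). Summed marker levels for marginal, intermediate and basal cells were high in both genotypes, and 7 of 8, 8 of 8 and 6 of 6 of these markers were above background on all 6 arrays. Slc26a4 signal of the 3 wild-type arrays was 1354, 1262 and 793, against 520, 717 and 619 for the mutants, without overlap (log2 fold change -0.85, adjusted p = 0.119). No source used here says where its probes lie relative to the deletion. The male-specific transcript Eif2s3y measured 640 to 1541 in Slc26a4+/+ and 3.1 to 3.6 in Slc26a4-/-, while Xist measured 771 to 3358 and 5530 to 5863, so the sex of the pooled animals and the genotype cannot be told apart. The ratio of Gapdh 3′ to 5′ signal also varied, at 2.25, 7.19 and 10.5 in Slc26a4+/+ and 3.34 to 3.80 in Slc26a4-/-. RNA integrity and the 2 rounds of amplification cannot be told apart in this ratio.

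The upstream sequences of 3 members are shown because the comparison turns on their brightest probe sets. That of Anxa4 passed the test, and that of Anxa2 did not pass it although its groups were apart. That of Anxa1 had groups that overlapped. Of the 10 genes, 8 have a window in the RefSeq table used (GRCm38.p6), and Anxa3 and Anxa6 do not. Each sequence runs 5′ to 3′ on the strand of the gene and ends 20 bases past the annotated start, and capitals mark matches on either strand to TATAAA (the TATA box), GGGCGG (the GC box), TGANTCA (the AP-1 motif) and GGACTTTCC (an NF-kappaB-type motif). The motifs were chosen with these sequences in view. The windows are chr6:86793615-86793834 (minus strand) for Anxa4, chr9:69453433-69453702 (plus strand) for Anxa2 and chr19:20390652-20390921 (minus strand) for Anxa1.
Anxa4: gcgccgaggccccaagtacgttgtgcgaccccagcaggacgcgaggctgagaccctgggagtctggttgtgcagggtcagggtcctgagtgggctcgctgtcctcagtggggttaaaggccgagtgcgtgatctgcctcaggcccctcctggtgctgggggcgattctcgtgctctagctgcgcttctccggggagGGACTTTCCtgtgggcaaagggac
Anxa2: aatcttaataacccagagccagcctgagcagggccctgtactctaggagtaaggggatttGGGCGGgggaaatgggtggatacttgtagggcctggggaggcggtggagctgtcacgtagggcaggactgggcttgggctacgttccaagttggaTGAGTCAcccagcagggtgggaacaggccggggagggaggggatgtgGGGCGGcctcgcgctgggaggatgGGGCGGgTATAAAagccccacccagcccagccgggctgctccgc
Anxa1: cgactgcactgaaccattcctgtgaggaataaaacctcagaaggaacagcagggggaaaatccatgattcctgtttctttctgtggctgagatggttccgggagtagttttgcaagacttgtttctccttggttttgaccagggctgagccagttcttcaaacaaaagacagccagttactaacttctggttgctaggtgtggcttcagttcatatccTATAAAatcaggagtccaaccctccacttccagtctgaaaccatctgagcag
The Anxa4 stretch held GGACTTTCC beginning at position -4, counted from the annotated start with no position 0. RefSeq lists a further start of Anxa4, with the window chr6:86775065-86775364, which held none of the 4 motifs. The Anxa2 stretch held TATAAA at -17, GGGCGG at -190, -48 and -24, and TGAGTCA at -95, with no overlap among them. The Anxa1 stretch held only TATAAA, at -32. Among 32851 promoter windows of 300 bases, 13.6% held TATAAA, 35.7% GGGCGG, 7.81% TGANTCA and 0.344% GGACTTTCC. The stretches shown are shorter than these windows. The full window of the Anxa4 stretch, chr6:86793535-86793834, also held 1 match to GGGCGG. A match describes letters in the window and was not tested as a binding site.

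Of the 20 annexin probe sets, 1 was higher in Slc26a4-/- than in Slc26a4+/+ at an adjusted p under 0.05 (limma, Benjamini-Hochberg over all 45037 probe sets), and none was lower. It was the brightest probe set of Anxa4. Over the whole array, 1.19% of probe sets passed as higher and 0.540% as lower. At an unadjusted p under 0.05 there were 4 higher annexin probe sets, of Anxa1, Anxa2, Anxa3 and Anxa4, and 0 lower, where 6.15% and 5.77% of all probe sets stood at that level. In those same 4 probe sets all 3 Slc26a4-/- arrays lay above all 3 Slc26a4+/+ arrays, against 8.46% of all probe sets, and in no annexin probe set did they all lie below, against 9.40% of all. The Anxa1 probe set among these 4 was 1444016_at, which was below background on every array. In the bright Anxa1 probe set the genotypes overlapped. Taking each gene by its brightest probe set, 1 of 9 annexin genes passed as higher and 0 as lower, with 1.88% and 0.803% of all genes. The median log2 fold change was 0.20 over the 9 annexin genes and -0.03 over all genes. Over all 20 annexin probe sets it was 0.057 (11 positive and 9 negative) against -0.064 over all probe sets, and over those above background on all 6 arrays 0.12 against -0.03. These shares rest on few members and describe them only.

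Detection split the family. At least 1 probe set was above background on all 6 arrays for Anxa1 to Anxa7, and none was above it on any array for Anxa8 and Anxa9. In total 12 of the 20 probe sets were above background on all 6 arrays and 5 on none. The annexin genes outside the selection, Anxa10 and Anxa13, known from stomach and intestine, were also below background on all arrays. In whole tissue, a change in the number of cells of a type and a change of RNA per cell cannot be told apart, and this holds for each difference below.

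**Figure D1:**
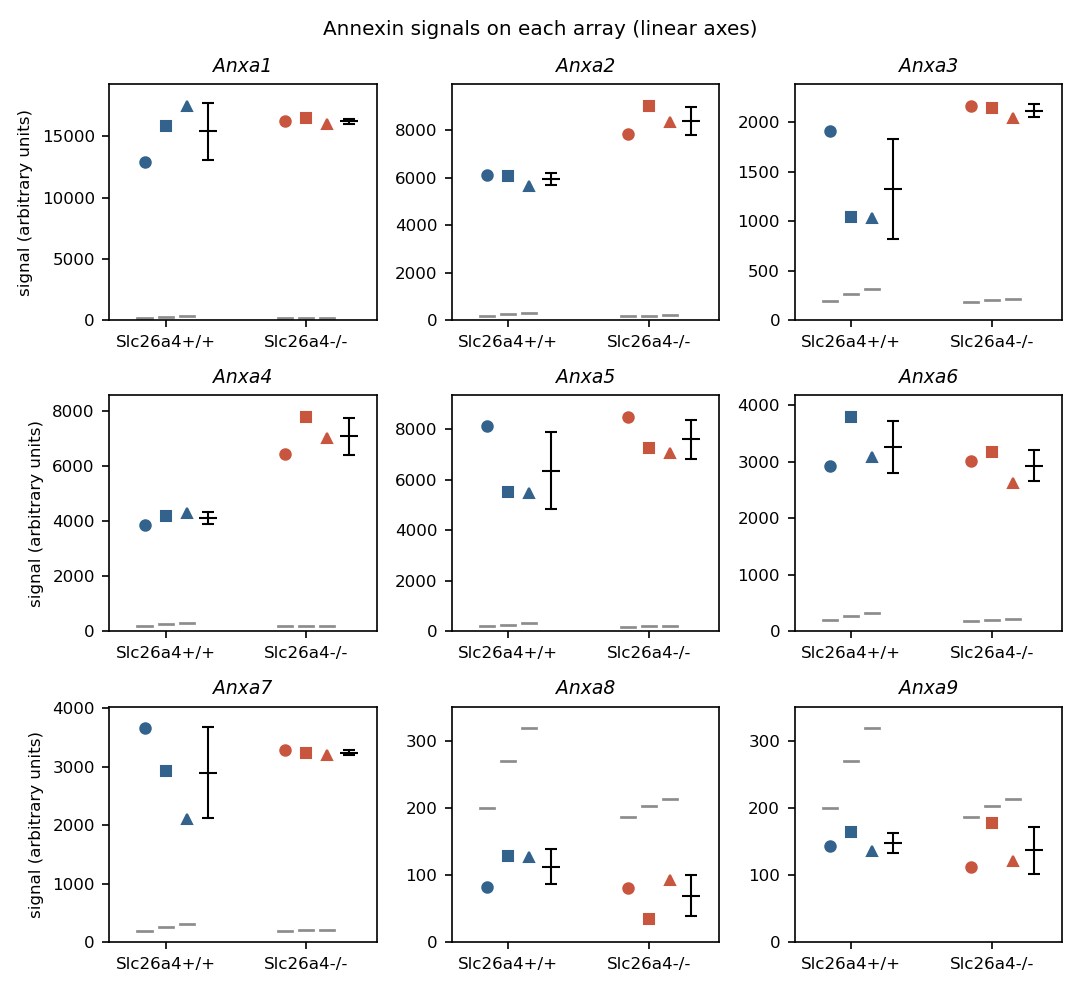
Signal of the brightest probe set of each of 9 annexin genes on the 6 arrays (y axis, arbitrary units, linear from 0, with its own scale in each panel). Blue and red symbols are the Slc26a4+/+ and Slc26a4-/- arrays, the shape gives the replicate number, black marks give the mean ± SD, and grey ticks give the background of each array. All 3 red points lie above the blue ones for Anxa2, Anxa3 and Anxa4, and Anxa8 and Anxa9 stay below background.

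Anxa4 was the only member with a probe set that passed the test, and this was 1 of its 3 probe sets. Its protein is typical of polarized, ion-transporting epithelia, where it lies under the plasma membrane and is known to restrain calcium-activated chloride conductance. The gene lies at chr6:86736840-86793634 (GRCm38.p6). Its brightest probe set, 1421223_a_at, measured 3871, 4203 and 4299 in Slc26a4+/+ against 6456, 7796 and 7028 in Slc26a4-/-. The groups did not overlap, and the lowest mutant array was well above the highest wild-type array. The means were 4124 ± 225 and 7093 ± 673 (SD, n = 3 arrays each), a 1.72-fold difference (95% interval 1.40 to 2.11; log2 fold change 0.78, SE 0.13, adjusted p = 0.0190). The call was lost when the second Slc26a4+/+ array was left out (adjusted p = 0.0805) or any 1 Slc26a4-/- array (0.0780, 0.152 and 0.136 for replicates 1, 2 and 3), while the log2 fold change stayed between 0.71 and 0.85. It was also lost without limma's mean-variance trend (adjusted p = 0.245). The methods' t-test, with arrays paired here by their number, gave an adjusted p of 0.428. That test called 0 of all 45037 probe sets, so it cannot decide about Anxa4.

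The other probe sets of Anxa4 did not follow. Probe set 1424176_a_at measured 1072, 527 and 470 in Slc26a4+/+ and 540, 586 and 580 in Slc26a4-/-, a log2 fold change of -0.18 (95% interval -0.81 to 0.46; adjusted p = 0.862). Here the first wild-type array stood above all mutant arrays, while the other wild-type arrays lay below all mutant arrays. The negative log2 fold change of this probe set therefore rests on the first wild-type array. Probe set 1457658_x_at measured 315, 293 and 341 against 241, 350 and 318 (log2 fold change -0.08, interval -0.58 to 0.43; adjusted p = 0.932). Both were above background on all 6 arrays. The mean of the 3 probe sets gave a log2 fold change of 0.17 (adjusted p = 0.704). No source used here says which exons or transcript ends the 3 probe sets read.

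Within an array, the log2 difference between the brightest Anxa4 probe set and 1424176_a_at was 1.85, 3.00 and 3.19 in Slc26a4+/+ and 3.58, 3.73 and 3.60 in Slc26a4-/-. Against 1457658_x_at it was 3.62, 3.84 and 3.66, and 4.74, 4.48 and 4.46. In both cases the mutant arrays lay above all wild-type arrays, by 0.96 and 0.86 on average. With 3 arrays against 3 an exact two-sided permutation test cannot go below p = 0.1, and both comparisons stood at that value (0.35 after Benjamini-Hochberg over the 7 probe set pairs compared). In the other 5 pairs, of Anxa2, Anxa6 and Anxa7, the genotypes overlapped and the differences ran from -0.73 to 0.41 (exact p of 0.2 to 1).

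**Figure D2:**
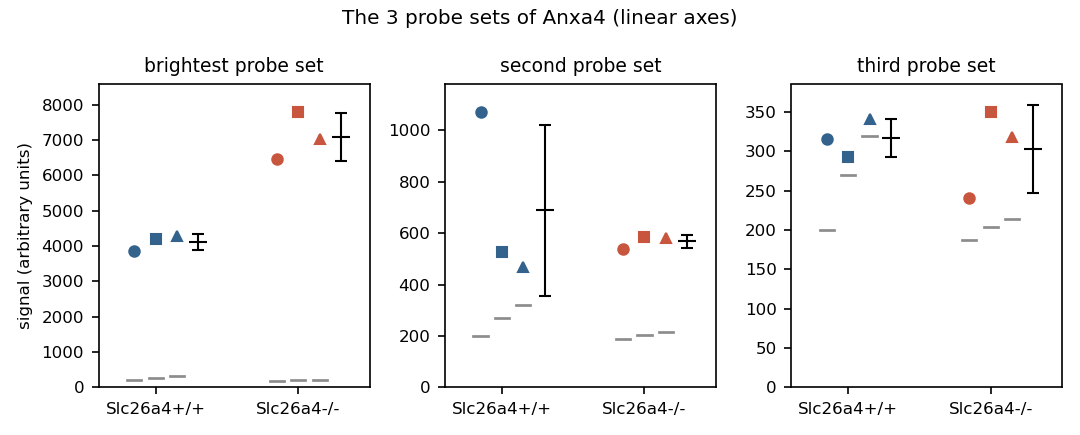
Signal of the 3 Anxa4 probe sets on the 6 arrays (y axis, arbitrary units). Blue and red symbols are Slc26a4+/+ and Slc26a4-/- arrays and black marks give the mean ± SD. The genotypes are apart in 1421223_a_at, with means of 4124 and 7093, and overlap in the other two probe sets.

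Anxa2 is the annexin best known at the cell surface, where a heterotetramer with S100a10 binds tissue plasminogen activator and plasminogen and promotes formation of plasmin. Its brightest probe set, 1419091_a_at, measured 6091, 6064 and 5661 in Slc26a4+/+ and 7821, 9013 and 8331 in Slc26a4-/-. All mutant arrays were above all wild-type arrays. The difference was 1.41-fold (95% interval 1.16 to 1.72; log2 fold change 0.50, SE 0.13) and did not pass after adjustment (unadjusted p = 0.00335, adjusted p = 0.112, limma). It passed after quantile normalization (adjusted p = 0.0349), with array weights (0.0106) and without the first Slc26a4+/+ array (0.0457). The x_at probe set 1437692_x_at averaged 333 ± 88.7 and 364 ± 76.3 (log2 fold change 0.14, adjusted p = 0.887), and 1437691_at was below background on all arrays.

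Anxa3, an annexin known from neutrophils and microglia, had 1 probe set, 1460330_at. It measured 1912, 1042 and 1028 in Slc26a4+/+ against 2164, 2143 and 2039 in Slc26a4-/-. The mutant arrays were close to each other and above all wild-type arrays, of which the first was 1.85 times the mean of the other two. The log2 fold change was 0.74 (SE 0.23, 95% interval 0.23 to 1.24) with an adjusted p of 0.194 (unadjusted p = 0.00905, limma). Without that array the log2 fold change was 1.03 and passed (adjusted p = 0.00413), and it passed with array weights as well (0.00402).

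Anxa1, which is induced by glucocorticoids, restrains phospholipase A2 and signals through formyl peptide receptors, was read by 2 probe sets. The bright one, 1448213_at, measured 12895, 15858 and 17476 in Slc26a4+/+ against 16215, 16461 and 16023 in Slc26a4-/-. The mutant values fell inside the wild-type range. The fold change was 1.06 (95% interval 0.837 to 1.35; adjusted p = 0.878). The other probe set, 1444016_at, measured 77.6, 14.7 and 33.9 against 131, 81.0 and 185, with no overlap (unadjusted p = 0.0166, adjusted p = 0.261, limma), but it was below background on every array and no fold can be read from it.

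Anxa5 binds phosphatidylserine exposed on dying cells and forms lattices at sites of membrane damage. Its probe set 1425567_a_at measured 8130, 5511 and 5478 in Slc26a4+/+ against 8497, 7274 and 7072 in Slc26a4-/-. The first array of each genotype was the highest, and the groups overlapped through the first wild-type array. The log2 fold change was 0.28 (95% interval -0.12 to 0.68; adjusted p = 0.608).

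Anxa6, the largest annexin, acts in endosomal cholesterol traffic and in membrane repair. Its brightest probe set, 1415818_at, measured 2920, 3791 and 3083 in Slc26a4+/+ and 3007, 3164 and 2626 in Slc26a4-/- (log2 fold change -0.15, 95% interval -0.48 to 0.18; adjusted p = 0.766). The groups overlapped. Its probe set 1429246_a_at measured 543, 176 and 134 against 348, 398 and 312, with the first wild-type array the highest of the 6 (log2 fold change 0.58, adjusted p = 0.679). The remaining probe sets, 1442288_at and 1429247_at, had log2 fold changes of -0.19 and -0.53 (adjusted p = 0.813 and 0.561).

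Anxa7, or synexin, promotes membrane fusion and binds the calcium sensor sorcin. Its brightest probe set, 1416138_at, measured 3661, 2922 and 2111 in Slc26a4+/+ and 3292, 3226 and 3204 in Slc26a4-/-, with the mutant arrays inside the wild-type range (log2 fold change 0.20, 95% interval -0.23 to 0.62; adjusted p = 0.758). The log2 fold changes of its other probe sets were -0.21 for 1416137_at and 0.16 for 1438764_at (adjusted p = 0.699 and 0.907).

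Anxa8 and Anxa9 were at background. Anxa8, found mainly in epithelia such as skin, measured 82.3, 128 and 128 in Slc26a4+/+ and 80.7, 35.1 and 93.2 in Slc26a4-/- on 1417732_at. Its other probe set, 1425789_s_at, was likewise below background on every array. Anxa9, an annexin with atypical calcium-binding sites, measured 144, 164 and 136 against 113, 177 and 121 on 1431554_a_at. None of these values was above the background of its array, and neither gene passed the test (adjusted p = 0.600 and 0.913).

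The wild-type arrays spread more than the mutant arrays for most of the detected members. The highest Slc26a4+/+ array was 1.86 times the lowest for Anxa3, 1.73 times for Anxa7, 1.48 times for Anxa5 and 1.36 times for Anxa1. The same ratio among Slc26a4-/- arrays was 1.06, 1.03, 1.20 and 1.03. Anxa2 and Anxa4 went the other way, with 1.08 and 1.11 in wild type against 1.15 and 1.21 in mutants. The first Slc26a4+/+ array was high for Anxa3, Anxa5 and Anxa7 (1.85, 1.48 and 1.45 times the mean of the other two) and low for Anxa1 (0.774 times). That array also had the lowest Gapdh 3′ to 5′ ratio of the 6 arrays. The part of RNA integrity or amplification in these values was not tested.

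**Figure D3:**
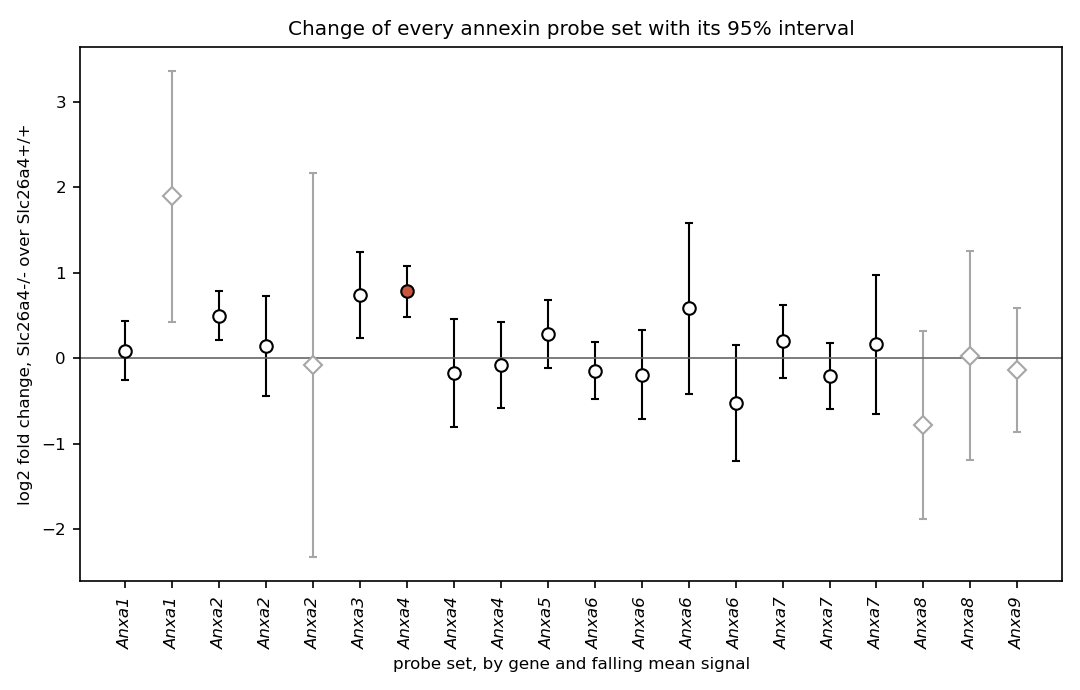
Log2 fold change, Slc26a4-/- over Slc26a4+/+, with its 95% interval for each of the 20 annexin probe sets. The filled red point passed an adjusted p of 0.05 and grey diamonds are probe sets below background on every array. The interval of 1421223_a_at of Anxa4 runs from 0.48 to 1.08, and among the bright probe sets those of Anxa2 and Anxa3 also lie above 0.

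Genes whose proteins bind annexins or act with them were examined next, by the brightest probe set of each gene. Some have more than 1 (S100a10 has 3, Plat 2 and Cd44 4), and whether the dimmer ones followed was not tested. Of 15 such genes 13 were measured (S100a11 and Fpr1 had no probe set of their own), and 3 passed as higher and 0 as lower (limma; 6 and 1 at an unadjusted p under 0.05), beside the 1.88% and 0.803% of all genes given above and 8.48% and 6.42% at the unadjusted level. The median log2 fold change of the list was 0.11. S100a10, the partner of Anxa2, measured 2608, 2801 and 2951 in Slc26a4+/+ against 5011, 5054 and 4601 in Slc26a4-/-. The groups were far apart, at 2787 ± 172 and 4888 ± 250.1 (1.75-fold, log2 fold change 0.81, SE 0.13, adjusted p = 0.0121). Plat, the tissue plasminogen activator that this complex binds, measured 1597, 1191 and 1192 against 2916, 2089 and 3334, again without overlap (2.08-fold, log2 fold change 1.05, SE 0.20, adjusted p = 0.0301). Plg, the substrate of Plat, was below background on all arrays.

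The remaining partner that passed was Cd44, a hyaluronan receptor whose lipid-raft clusters recruit Anxa2. It measured 2092, 2519 and 3063 in Slc26a4+/+ and 4665, 4532 and 5013 in Slc26a4-/- (1.87-fold, log2 fold change 0.91, SE 0.16, adjusted p = 0.0217). The 3 wild-type arrays lay below the 3 mutant arrays. Cd44 also belongs to the intermediate cell markers. S100a10, Plat and Cd44 all lost the call without the trend, without replicate 2 of Slc26a4+/+ and without replicate 1 or 3 of Slc26a4-/-. None passed in the methods' t-test, which called 0 probe sets over the whole array. Of these genes only Plat kept the call without replicate 2 of Slc26a4-/-. Plat also lost it without replicate 3 of Slc26a4+/+ (adjusted p = 0.0695) and with arrays centred on their medians (0.114). The receptor of Anxa1, Fpr2, averaged 213 and 168 and exceeded background on 1 Slc26a4-/- array alone (adjusted p = 0.764). In the other direction, Itgb5, an integrin subunit that can bind Anxa5 and that is named here after its values were seen, averaged 16299 ± 4835 and 9394 ± 718 with no overlap and did not pass (log2 fold change -0.75, adjusted p = 0.138).

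Among 12 genes of plasma membrane resealing other than annexins, 1 passed as higher and 0 as lower (limma), beside 1.88% and 0.803% of all genes. At an unadjusted p under 0.05 there were 3 and 0, beside 8.48% and 6.42% of all genes. The median log2 fold change was -0.04. The gene that passed was Cav1, the coat protein of caveolae, the flask-shaped pits of the plasma membrane. Cav1 had the largest fold of the 3 lists of annexin-related genes. It measured 2045, 2105 and 2022 in Slc26a4+/+ against 6872, 6276 and 6719 in Slc26a4-/-. The groups were tight and far apart, with a 3.22-fold difference (log2 fold change 1.69, SE 0.12, adjusted p = 0.000171). Smpd1, the acid sphingomyelinase released at wounds, averaged 4199 ± 356 and 6181 ± 57.7 with no overlap but did not pass (log2 fold change 0.56, adjusted p = 0.0675). Capn2, a calcium-activated protease, had a log2 fold change of 0.42 (adjusted p = 0.283). Dysf and Trim72, both central to resealing in muscle, were below background on every array.

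Of 13 genes of phosphatidylserine exposure and recognition, which share the ligand of Anxa5, none passed in either direction (limma). At an unadjusted p under 0.05 there were 3 higher and 1 lower, with 8.48% and 6.42% of all genes at that level. Limma with array weights called 5, counted in both directions (Axl, Gas6, Mertk, Pros1 and Stab1). At that setting it called 2372 probe sets higher and 1712 lower of all 45037. The methods' t-test called 0 after adjustment, as it did over all probe sets. The median log2 fold change was 0.26. Stab1, a scavenger receptor, was below background on all Slc26a4+/+ arrays (173 ± 51.7) and above it on all Slc26a4-/- arrays (374 ± 76.4), at least 1.43-fold higher (adjusted p = 0.107). Pros1 (protein S) and Gas6, the bridging ligands of the Tyro3, Axl and Mertk receptors, had log2 fold changes of 0.66 and -0.56 (adjusted p = 0.162 and 0.244).

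**Figure D4:**
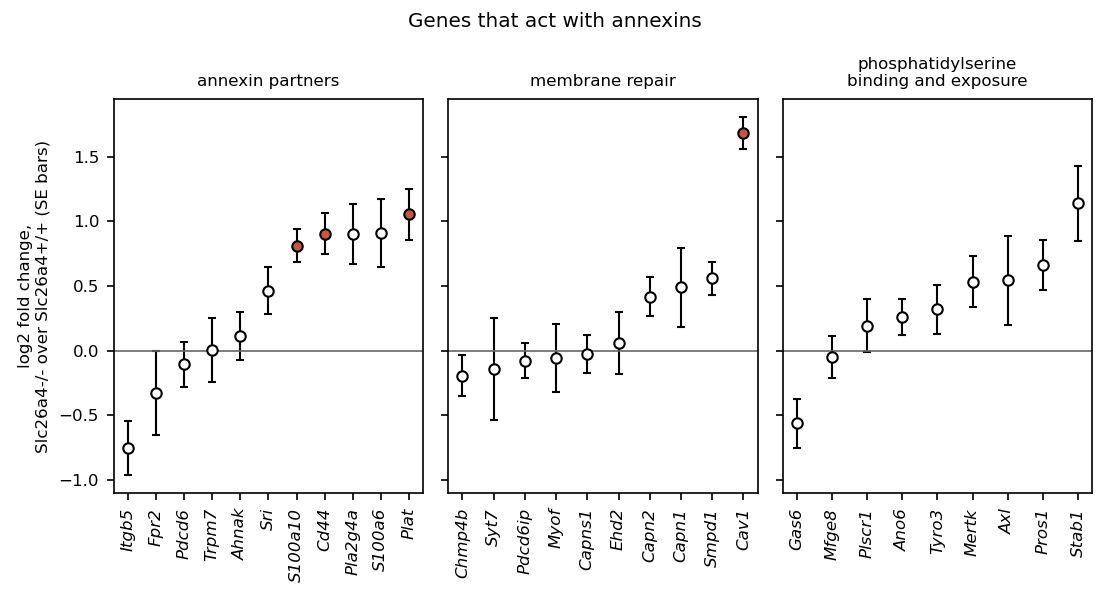
Log2 fold change ± SE, Slc26a4-/- over Slc26a4+/+, of annexin partner, membrane repair and phosphatidylserine genes above background on at least 1 array. Filled red points passed an adjusted p of 0.05: S100a10, Cd44 and Plat among the partners and Cav1 among the repair genes.

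Markers of several cell types moved with genotype beside these values. For the counts that follow, 1.88% of all genes passed as higher and 0.803% as lower. At an unadjusted p under 0.05 (limma) the shares of all genes were 8.48% and 6.42%. Of all probe sets, 8.46% were higher and 9.40% lower without overlap. All 12 macrophage markers were higher in the 3 Slc26a4-/- arrays without overlap and 9 passed the test (median log2 fold change 1.84). Their summed signal was 6143 to 8803 in Slc26a4+/+ and 22603 to 24906 in Slc26a4-/-, with none below background on all arrays. Of 10 spiral ligament fibrocyte markers 6 passed as higher (sum 9241 to 13458 against 16241 to 17768.5). These were Chad, Dcn, Ucma, Otos, Col1a2 and Col3a1. Coch, Tbx18, Lum and Pou3f4 did not pass and overlapped between genotypes, with log2 fold changes of 0.17, 0.27, 0.21 and -0.75. Of 8 marginal cell markers 2 passed as lower (sum 57282.5 to 74996 against 42068 to 45097). At an unadjusted p under 0.05, 7 of the 8 were lower (limma), and 6 were lower without overlap (median log2 fold change -0.52). Of 3 Schwann cell markers measured, 1, Pmp22, passed as higher (sum 7497 to 8192 against 9707 to 11280).

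Of 5 spindle and root cell markers 1, the ATP-gated channel gene P2rx2, passed as higher, from below background on all Slc26a4+/+ arrays, while the other 4 had negative log2 fold changes from -0.88 to -0.03 without passing (list median -0.35, sum 2172 to 4926 against 2147 to 2503.5). Of 8 intermediate cell markers Cd44 alone passed as higher (sum 65192 to 74745 against 72892 to 73307). None passed of 8 endothelial markers (sum 2577 to 3501 against 3756 to 4268, with Pecam1 and Tie1 below background), and none of 6 basal cell markers (49723 to 56569 against 48403 to 49985). At an unadjusted p under 0.05, limma gave 2 of the endothelial and 0 of the basal markers. It also gave 3 of the intermediate cell markers, Cd44, Tyr and Mlana, all higher, and of these Cd44 and Tyr did not overlap. Blood and neutrophil markers summed to 714 to 1768 and 555 to 885, with Mpo, Hba-a1, S100a8, S100a9, Ltf and Camp below background on every array, and stratified epithelium markers to 657 to 1107 and 628 to 833.5, with 6 of 7 below background. The part of these cell types in the values of Anxa4, its relatives and their partners was not tested.

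The genes whose log2 signals over the 6 arrays most resembled those of Anxa4 1421223_a_at, among 18181 probe sets averaging at least 200 in 1 genotype, were Lix1l (Pearson r = 0.998), Atad1 (0.997), Rsph1 (0.996), Rpl13a (0.996) and Pxmp2 (0.994). Most of the likeness is the step between genotypes, which all 6 arrays share. The size of that step differed widely, with log2 fold changes of 0.88 for Lix1l (adjusted p = 0.0296), 1.27 for Pxmp2 (0.00837), 0.38 for Atad1 (0.437) and 0.18 for Rpl13a (0.619). The genes were picked by r on the same 6 arrays, so their p-values (limma) are not independent of that choice. Rsph1, a gene of motile cilia (adjusted p = 0.0202), reached the average of 200 through the Slc26a4-/- arrays alone and was below background on all Slc26a4+/+ arrays, so its r rests on wild-type values that are not above background. Pxmp2 codes for a channel of the peroxisomal membrane.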

How the data were processed

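RNA from stria vascularis was hybridized to Affymetrix mouse genome arrays, and the signals were produced by the authors with GCOS. The deposited values are intensities on a linear scale, 1 per probe set and array, with like means on all arrays (the sources used here do not give the scaling target), and were used without further normalization. Depth does not apply, and the number of arrays limits the precision. Groups were taken from the sample titles. The 64 control probe sets were left out, 172 values below 1 were set to 1, and log2 values of 45037 probe sets were fitted with limma 3.58.1 (R 4.3.3; lmFit, eBayes with a mean-variance trend) without a block. P-values are two-sided, with Benjamini-Hochberg adjustment over all probe sets and a threshold of 0.05. Genes were named from the platform annotation (34945 probe sets with 1 symbol, 932 with several and 9160 with none), and a gene was represented by its probe set of highest mean log2 signal. Each array's background was set at the 95th percentile of its signals for 44 olfactory receptor rows.

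The members and the gene lists were chosen with earlier results of these data known. All annexin probe sets with 1 symbol were named, with the 3 smallest p-values and all calls of the 3 pathway lists and the 5 genes most correlated with Anxa4. A fold against a group below background on all its arrays was bounded by setting that group at each array's background level. The fit was tested on simulated data. Alternatives were other scalings, pseudocounts of 16 and 64, a filter at a mean signal of 100, eBayes without the trend and array weights. Others were a t-test paired by array number, a replicate block, the mean of all probe sets, the study's ratio rule and each array left out. The paper's general statistics name paired t-tests, while its gene chips were judged by fold ratios. The titles number the arrays of each genotype 1 to 3 without saying that a number marks a shared day. Deviations from the genotype means of same-numbered arrays correlated at 0.307, 0.195 and 0.155 over 14199 probe sets above background on all arrays. Arrays of different numbers were not compared in this way, so these values do not show that the numbers mark pairs. The replicate block treats the numbers as pairs as an alternative only.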

Additional observations from a re-analysis of the deposited data

How the results depend on the processing

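Anxa4 kept a positive log2 fold change in all 18 alternatives (0.17 to 0.86) and passed in 10 of the 17 that give a test (adjusted p from 0.00117 to 0.704); the study's ratio rule gave 0.22. The annexin probe sets called higher numbered 2 after quantile normalization, 0 without the trend, 4 with array weights and 0 to 4 with 1 array left out. None was called lower in any of these. The methods' t-test, paired by array number, called 0 probe sets over the whole array, so its counts of 0 here say nothing of the members. The 4 without the first Slc26a4+/+ array were of Anxa2, Anxa3, Anxa4 and Anxa6, and none was called without the second Slc26a4+/+ array or any 1 Slc26a4-/- array. The brightest Anxa6 probe set did not pass there (log2 fold change -0.23, adjusted p = 0.401, limma), so that call came from a dimmer one. The 4 with array weights were of Anxa1, Anxa2, Anxa3 and Anxa4. Among these the bright Anxa1 probe set did not pass (adjusted p = 0.781, limma). The Anxa1 call came from 1444016_at, which was below background on every array. Partner genes called (3 without any change) numbered 0 without the trend, 6 with array weights, 0 in the t-test and 0 to 4 with 1 array left out. Membrane repair genes numbered 2 after quantile normalization, with the signal filter and with array weights, 0 in the t-test and 1 to 2 with 1 array left out. Phosphatidylserine genes numbered 5 with array weights and 0 to 1 with 1 array left out. With 1 array left out, the log2 fold change of Anxa1 ran from -0.036 to 0.18 and that of Anxa7 from -0.014 to 0.38, each with a change of sign, and Anxa7 stood at -0.00902 under the ratio rule. For Anxa1 the mean of its probe sets, 1 of them below background, gave 0.99 (adjusted p = 0.0874), and the ratio rule gave 1.07; by that rule, with its limit of a 1.3-fold change, Anxa1 (2.10-fold) and Anxa3 (1.59-fold) changed and Anxa4 (1.17-fold) did not. The cause of these shifts was not tested.

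With the replicate block Anxa4 stood at an adjusted p of 0.0274 (log2 fold change 0.78), and the genes called among the annexins and the 3 pathway lists were the same as without it (3 partner genes and 1 repair gene shared). Centring arrays on their medians moved the calls over all probe sets from 535 higher and 243 lower (68.8% higher) to 359 and 89 (80.1% higher). Over all probe sets the calls were 93 and 21 without the trend, 2372 and 1712 with array weights, 0 and 0 in the t-test, and, with 1 array left out, between 165 and 1048 higher and between 54 and 666 lower. The annexin probe sets detected on 2 or more arrays of either genotype numbered 14 with the 90th, 95th or 99th percentile. Anxa8 has no value under the signal filter. Signal over background limits what can be said of Anxa8, Anxa9 and the dim probe sets of the other members.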
